A study of Drosophila melanogaster with 4 samples.

Results

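The genes examined here are the phototransduction and visual chromophore genes of the fly eye, 34 of the 13926 genes in the count table. They were taken by name: the signalling cascade of the photoreceptor, its regulators, and the genes that supply the chromophore or mature the opsin, without the rhodopsin genes themselves. All 34 names are in the table. Of these, 31 had enough counts for a test and 3 (Arr2, ninaA and stops) were listed at 0 in every library. The members fall into 5 roles: the core cascade (9 genes), rhodopsin shut-off and calcium feedback (10), the phosphoinositide cycle (5), chromophore and opsin maturation (7) and rhabdomere structure (3).

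Polyadenylated RNA from pooled heads of male flies at day 50 (D50) was sequenced in 4 libraries, 2 from NelfA*/+ flies and 2 from their control siblings (+/+). NelfA*/+ flies are heterozygous for the P-element insertion allele Nelf-A KG09483 on chromosome arm 3R, backcrossed repeatedly to w1118 males. The control siblings came from the same crosses and lacked the insertion. Nelf-A encodes a subunit of NELF, the complex that holds RNA polymerase II in a paused state near promoters. Each library was made from a pool of heads, one insertion line was used, and P elements of the KG collection carry white and yellow marker genes, so that the insertion and its markers cannot be told apart from the lower Nelf-A dose. The w gene lies wholly inside kirre and, as every gene so placed in this table, is listed at 0 in all 4 libraries, so that its 0 says nothing of w or of the white marker. Eye colour is not given in the sources used here. Counts on genes came to between 42985746 and 45172099 per library. Nelf-A itself had 2387 and 2398 normalized counts in NelfA*/+ heads, against 3598 and 3365 in control siblings (counts scaled to a common library size by edgeR's TMM factors), 68.7% of the control mean (log2 fold change -0.54, adjusted p = 0.0411 in edgeR; 0.259 without control sibling replicate 1, 0.145 without control sibling replicate 2 and 0.0584 with no filter on low counts). All 7 rhodopsin genes were detected in every library.

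In the fly photoreceptor, light converts rhodopsin into metarhodopsin, which activates a Gq protein and through it the phospholipase C encoded by norpA. Hydrolysis of the membrane lipid PIP2 then opens the TRP and TRPL cation channels in the microvilli of the rhabdomere, the light-sensing organelle. The response ends when arrestins bind metarhodopsin, when calcium feeds back on the cascade, and when PIP2 is rebuilt through a lipid cycle that runs by way of phosphatidic acid. The chromophore of fly rhodopsin, a hydroxylated form of retinal, is made from dietary carotenoids that are taken up by scavenger receptors, cleaved, and modified in several cell types, and pigment cells of the retina take part in its regeneration.

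A single member, laza, was called between genotypes, and it was lower in NelfA*/+ heads. Across the 9609 genes tested, the quasi-likelihood test of edgeR, adjusted after Benjamini and Hochberg, called 1.87% at an adjusted p below 0.05, and 1.23% in the lower direction. The 1 call among 31 members (3.23%) stands beside that background. At an unadjusted p below 0.05 there were 6 members, inaE higher and laza, santa-maria, ninaG, ninaB and Pdh lower, which is 19.4% of the members against 20.3% of all genes tested. DESeq2 called 3 members, all lower (laza, santa-maria and Pdh), where 4.84% of the genes it tested were called lower. For 5 members the NelfA*/+ libraries both exceeded the control libraries (16.1%), against 26.1% of all genes tested, and for 8 members (25.8%) they both lay below, against 26.0% of all genes tested.

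Most of the pathway differed little between genotypes. The median log2 fold change of the 31 members was -0.0053, beside 0.011 over all genes tested, with 14 members above 0 and 17 below. For 26 members the absolute log2 fold change was under 0.3. The median absolute log2 fold change was 0.083 for the members and 0.13 for all genes tested. The fold change was smaller than the larger of the 2 gaps between replicates of one genotype for 21 members. Neither this count nor that of the 26 members was made over all genes tested, so neither can be read as a trait of the members. The 95% confidence interval included 0 for 25, which restates the unadjusted p and is no trait of the members. Of all genes tested, 20.3% had an unadjusted p below 0.05. The intervals also bound what could have been missed: 29 of the 31 lay wholly within 1 log2 unit of no change, and 21 within 0.5. Members classed beforehand as restricted mainly to photoreceptors or the eye (19 tested) had a median log2 fold change of -0.0053. The 12 tested members not so classed, the low-count gene ninaD among them, had a median of 0.035. In bulk heads, fewer cells of a type and less RNA per cell cannot be told apart. The study calls the libraries biological replicates. Whether they came from separate vials or crosses is not given in the sources used here, so the p-values measure the spread between these libraries.

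**Figure D1:**
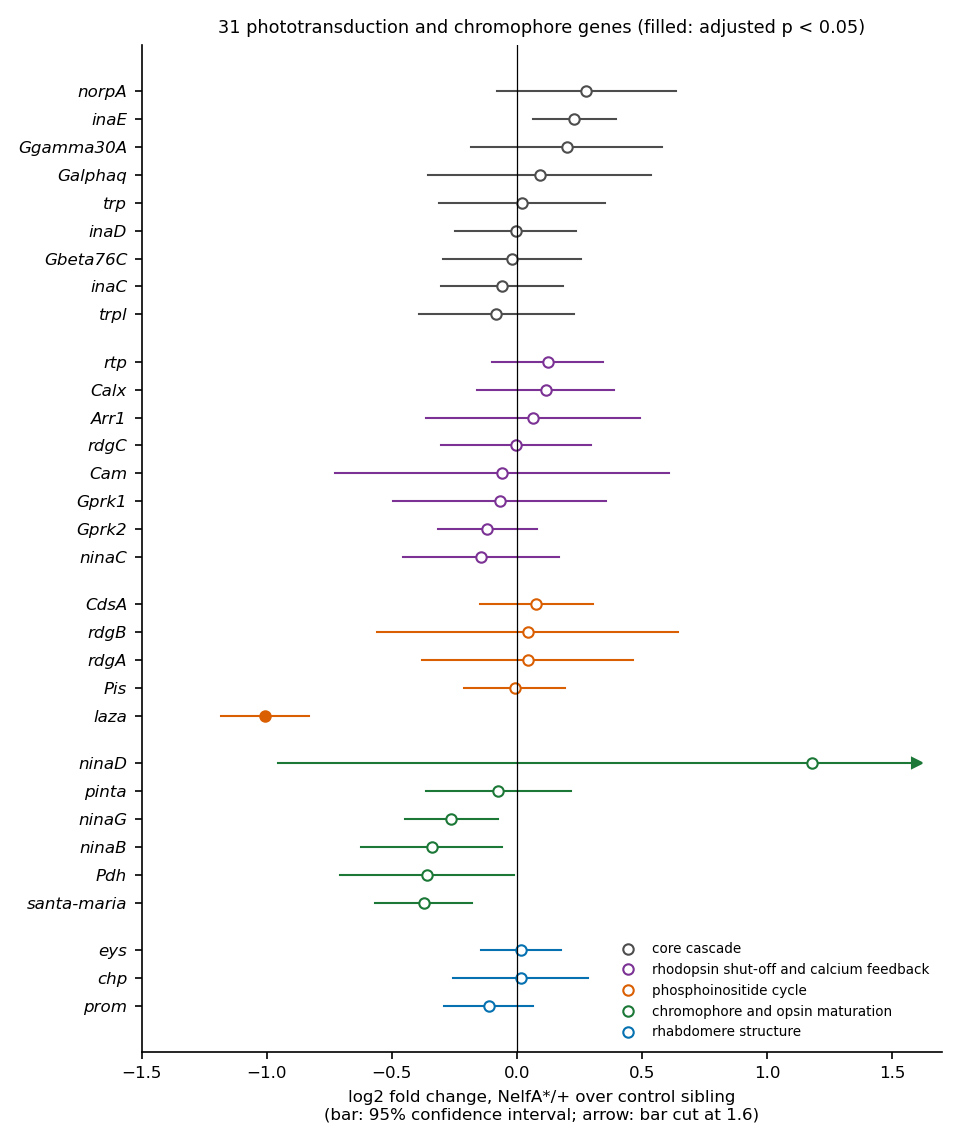
The log2 fold change of each of the 31 members tested, NelfA*/+ over control sibling (x axis), with its 95% confidence interval as a bar, grouped by role. The point for laza at -1.01 is the only filled one (adjusted p below 0.05 in edgeR), 4 chromophore genes lie between -0.37 and -0.26, and the bar of ninaD runs past the axis to 3.32.

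The lower gene, laza, encodes a phosphatidic acid phosphatase of photoreceptors, which turns phosphatidic acid back into diacylglycerol and so works against the diacylglycerol kinase encoded by rdgA. It had 2382 and 2246 normalized counts in NelfA*/+ heads, against 4727 and 4583 in control siblings. The libraries of each genotype lay close together and the genotypes were far apart, with means of 2314 ± 96.7 in NelfA*/+ heads and 4655 ± 102 in control siblings (SD, n = 2 each). The level in NelfA*/+ heads was 49.7% of that in control siblings (log2 fold change -1.01, SE 0.068, 95% confidence interval -1.18 to -0.83, adjusted p = 0.00983 in edgeR). The call was lost when either control library was left out (adjusted p = 0.13 without control sibling replicate 1 and 0.0994 without control sibling replicate 2), although the log2 fold change stayed between -1.05 and -0.97, and edgeR called only 2 genes in the whole table in each of these fits. The gene lies on chromosome arm 3L, positions 22458816 to 22461131 of the minus strand (BDGP6). It is annotated as 1 exon of 2316 bases and overlaps no other gene of the count table.

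Close to laza on 3L stands a row of 4 plus-strand genes, CG11438, CG11437, CG11426 and CG11425, which belong to the same family of lipid phosphate phosphatases, starting between 4.49 and 13.66 kb away. They were looked at after the value of laza was seen. CG11425, the farthest of them, was lower in NelfA*/+ heads at 448.9 ± 19.7 normalized counts, against 1308 ± 199 in control siblings (log2 fold change -1.54, SE 0.13, adjusted p = 0.0162 in edgeR; 0.129 without control sibling replicate 1 and 0.0932 without control sibling replicate 2). CG11437 had 80.98 ± 5.11 normalized counts in NelfA*/+ heads and 158.1 ± 25.0 in control siblings, and did not pass in edgeR (log2 fold change -0.96, adjusted p = 0.0930) but was called lower by DESeq2 (adjusted p = 0.0211). The other 2 genes of the row gave log2 fold changes near 0, -0.10 for CG11438 and -0.0072 for CG11426. The difference was therefore uneven along the row. As related genes of the family elsewhere in the genome, wun and wun2 gave log2 fold changes of 0.028 and 0.35 (adjusted p = 0.848 and 0.108). Reads without a unique alignment were listed apart from the genes (6.03% to 6.84% of all reads in the table and its summary lines). Reads shared by close family members may therefore be missing from these counts, which was not tested.

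The other 4 genes of the phosphoinositide cycle rebuild PIP2 from diacylglycerol and did not pass the test. Only CdsA did not overlap between genotypes, with 27395 and 25860 normalized counts in NelfA*/+ heads, against 25388 and 25069 in control siblings. The diacylglycerol kinase gene rdgA gave a log2 fold change of 0.043, the phosphatidylinositol transfer protein gene rdgB 0.044, the CDP-diacylglycerol synthase gene CdsA 0.078 and the phosphatidylinositol synthase gene Pis -0.0079, with adjusted p between 0.681 and 0.970 in edgeR. The intervals were narrow for CdsA (-0.15 to 0.30) and Pis (-0.21 to 0.19). The interval was wide for rdgB (-0.56 to 0.65), whose control libraries differed from each other. The rdgB gene had 17884 and 20736 normalized counts in NelfA*/+ heads, against 22968 and 14498 in control siblings, so the NelfA*/+ libraries lay between the control libraries. The same held for rdgA, with 25236 and 27873 in NelfA*/+ heads, against 29509 and 22037 in control siblings. Within this lipid cycle, laza was therefore the single member past the test, and the other 4 members had fold changes under 0.1 on the log2 scale.

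**Figure D2:**
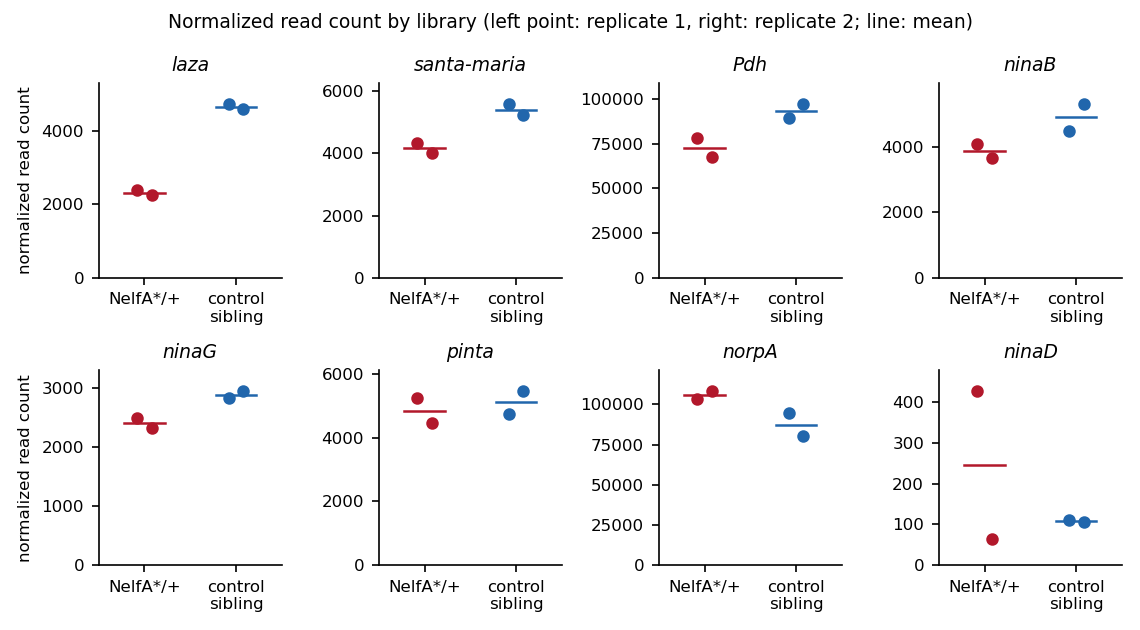
Normalized read counts in each library for 8 members, with NelfA*/+ on the left and control sibling on the right of each panel, 1 point per library and a line at the mean, on axes that start at 0. For laza the NelfA*/+ points at 2382 and 2246 lie far below the control points at 4727 and 4583, while the NelfA*/+ points of ninaD, 427 and 64.8, lie on both sides of the control points at 110 and 107.

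Most genes of chromophore supply had modestly lower values in NelfA*/+ heads, none of them past the adjusted threshold in edgeR. Of the 6 tested, 5 had a fold change below 0, and the sixth, ninaD, had one of 1.18 on the log2 scale. In 4 of the 6 the NelfA*/+ libraries both lay below the control libraries, where 26.0% of all genes tested did so, and the same 4 had an unadjusted p below 0.05, where 20.3% of all genes tested did so in either direction. DESeq2 called 2 of them lower, where it called 4.84% of the genes it tested lower, and limma-voom called 0. The median log2 fold change of the group was -0.30. The list was chosen with earlier results of these data known, so that no test was run on the group.

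The gene santa-maria encodes a scavenger receptor of the CD36 family that brings carotenoids into cells of the brain. It had 4342 and 4017 normalized counts in NelfA*/+ heads, against 5593 and 5225 in control siblings. Both NelfA*/+ libraries were lower than either control library, at 77.3% of the control mean (log2 fold change -0.37, SE 0.075, 95% confidence interval -0.57 to -0.18). The adjusted p was 0.0889 in edgeR and 0.00635 in DESeq2. The gene ninaB encodes the oxygenase that cleaves and isomerizes the carotenoid. It had 4069 and 3654 normalized counts in NelfA*/+ heads, against 4480 and 5303 in control siblings. The genotypes did not overlap, and the control libraries were further apart than the NelfA*/+ libraries (log2 fold change -0.34, SE 0.11, adjusted p = 0.186 in edgeR and 0.106 in DESeq2).

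Pdh encodes a pigment-cell retinol dehydrogenase used in regenerating the chromophore, and was among the most abundant members. It had 78022 and 67221 normalized counts in NelfA*/+ heads, against 89066 and 97197 in control siblings, without overlap (78.0% of the control mean, log2 fold change -0.36, SE 0.14). The adjusted p was 0.237 in edgeR and 0.0329 in DESeq2. The gene ninaG, whose oxidoreductase makes the hydroxylated chromophore, had means of 2407 ± 110 normalized counts in NelfA*/+ heads and 2887 ± 87.3 in control siblings (SD, n = 2 each), with a log2 fold change of -0.26 (adjusted p = 0.145). The gene pinta encodes a retinoid-binding protein of pigment cells. Its libraries overlapped between genotypes, with a log2 fold change of -0.074 and a 95% confidence interval of -0.36 to 0.21.

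Some marker lists of other cells were lower in sum in NelfA*/+ heads as well, and the muscle list was higher. The summed level of the lens and pigment-cell markers (5 genes, of which rst was listed at 0) was 617 and 603 CPM (counts scaled to a fixed total per library) in NelfA*/+ heads, against 843 and 907 CPM in control siblings, and retinin alone held 93.3% of this difference (348 and 340 CPM without it in NelfA*/+ heads, against 373 and 350 CPM in control siblings). That of the 22 eye pigment genes was 1812 and 1739 CPM in NelfA*/+ heads, against 2170 and 2134 CPM in control siblings, with w, st and dor at 0, and Hn alone held 70.4% of this difference (1383 and 1321 CPM without it in NelfA*/+ heads, against 1441 and 1486 CPM in control siblings). Of the 19 pigment genes tested, 5 had a fold change above 0. Of the 8 head fat body markers, 7 were in the count table, none at 0 throughout. They summed to 577 and 619 CPM in NelfA*/+ heads, against 896 and 846 CPM in control siblings. All 7 were lower without overlap, where 26.0% of all genes tested were. In contrast, the rhodopsins summed to 49039 and 43705 CPM in NelfA*/+ heads, against 40184 and 42689 CPM in control siblings, and the photoreceptor transcription factors to 1568 and 1760 CPM in NelfA*/+ heads, against 1934 and 1433 CPM in control siblings. Most rhodopsin counts were of ninaE, with 1947169 and 1651174 unscaled counts in NelfA*/+ heads, against 1587824 and 1752095 in control siblings. Neither edgeR nor DESeq2 called ninaE (log2 fold change 0.16). The 7 rhodopsin genes ranged from -0.79 for Rh5 to 0.94 for Rh2 on the log2 scale. The muscle markers summed to 2352 and 2448 CPM in NelfA*/+ heads, against 2103 and 2066 CPM in control siblings. The glia markers summed to 2226 and 2273 CPM in NelfA*/+ heads, against 2497 and 2296 CPM in control siblings. The part of these lists in the chromophore genes' values was not tested.

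The gene ninaD was measured too unevenly to compare. It encodes a scavenger receptor for carotenoids that acts in the gut, and it had 427 and 64.8 normalized counts in NelfA*/+ heads, against 110 and 107 in control siblings. NelfA*/+ replicate 1 was high and replicate 2 was low, with the control libraries between them (log2 fold change 1.18, SE 0.83, adjusted p = 0.501). Without NelfA*/+ replicate 1 the log2 fold change was -0.74, and without NelfA*/+ replicate 2 it was 1.98 and passed the test (adjusted p = 2.93e-04 in edgeR). In sum, gut markers were also higher in NelfA*/+ replicate 1 than in NelfA*/+ replicate 2. The 24 listed genes of gut proteases and carbohydrases summed to 1445 and 695 CPM in NelfA*/+ heads, against 1025 and 859 CPM in control siblings. Of the 11 tested, 9 had a fold change above 0 and 2, the abundant amylase genes Amy-p and Amy-d, were lower. Their log2 fold changes were -0.38 and -0.99 (adjusted p = 0.209 and 0.0362 in edgeR). Amy-p and Amy-d were left out after the values were seen. The sum without them was 883 and 94.8 CPM in NelfA*/+ heads, against 12.5 and 12.3 CPM in control siblings. Both NelfA*/+ libraries then lay above the control libraries, unlike for ninaD. The part of the gut markers in the value of ninaD was not tested.

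Most genes of the core cascade, from the G protein to the channels, were at or near the control level. For 3 of the 9 (norpA, Ggamma30A and inaE) both NelfA*/+ libraries exceeded both control libraries. That is 33.3%, against 26.1% of all genes tested. In edgeR 0 of the 9 genes were called, 1 (inaE) had an unadjusted p below 0.05, and DESeq2 and limma-voom called 0. The median log2 fold change was 0.020, and every interval lay between -0.39 and 0.63. The channel gene trp had 148490 and 140400 normalized counts in NelfA*/+ heads, against 141840 and 143020 in control siblings. Both control libraries lay between the NelfA*/+ libraries (log2 fold change 0.020, 95% confidence interval -0.31 to 0.35). The gene of the second channel, trpl, gave a log2 fold change of -0.083 (interval -0.39 to 0.23).

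The scaffold gene inaD, whose product holds the channel, the phospholipase and the eye-specific protein kinase C together, had 31569 and 29232 normalized counts in NelfA*/+ heads, against 30271 and 30751 in control siblings. The genotypes overlapped, with a log2 fold change of -0.0053 (SE 0.094, interval -0.25 to 0.24). The kinase gene inaC gave -0.060, with an interval of -0.30 to 0.18. For inaD the NelfA*/+ libraries bracketed the control libraries, and for inaC one control library lay above both.

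The phospholipase gene norpA had 103530 and 108310 normalized counts in NelfA*/+ heads, against 94577 and 80116 in control siblings. Both NelfA*/+ libraries were the higher ones, and the control libraries were further apart than the NelfA*/+ libraries (log2 fold change 0.28, SE 0.14, 95% confidence interval -0.079 to 0.63, adjusted p = 0.345). The G protein gamma subunit gene Ggamma30A (log2 fold change 0.20, interval -0.18 to 0.58) and the diacylglycerol lipase gene inaE (0.23, interval 0.065 to 0.40, adjusted p = 0.149) were also above both control libraries in both NelfA*/+ libraries without passing the test. The alpha and beta subunit genes, Galphaq and Gbeta76C, overlapped between genotypes, with log2 fold changes of 0.092 and -0.019. About 51.1% of the exonic bases of Galphaq lie within the span of CG45086, a gene of the same strand that is listed at 0 in all 4 libraries, so reads there may have been set aside as ambiguous.

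Shut-off and calcium feedback genes likewise stayed near the control level. In edgeR 0 of the 8 tested were called, 0 had an unadjusted p below 0.05, and DESeq2 and limma-voom called 0. Arr1 encodes one of the arrestins that bind metarhodopsin. It had 276540 and 244060 normalized counts in NelfA*/+ heads, against 233340 and 264170 in control siblings. The genotypes overlapped, with a log2 fold change of 0.065 (SE 0.17, interval -0.36 to 0.49). The gene ninaC encodes a myosin III with a kinase domain that moves and anchors signalling proteins in the rhabdomere. It had 99230 and 91844 normalized counts in NelfA*/+ heads, against 107460 and 103480 in control siblings, lower without overlap but not past the test (log2 fold change -0.14, interval -0.46 to 0.17, adjusted p = 0.578).

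The calmodulin gene Cam was the most variable of the abundant members, with 199910 and 218230 normalized counts in NelfA*/+ heads, against 268110 and 167130 in control siblings. The control libraries lay on both sides of the NelfA*/+ libraries, which left a log2 fold change of -0.058 with an interval of -0.73 to 0.61. The remaining 5 genes gave log2 fold changes between -0.12 and 0.12: Gprk2, a G protein-coupled receptor kinase used in several tissues, -0.12; Gprk1, the rhodopsin kinase, -0.068; rdgC, the rhodopsin phosphatase, -0.0027; Calx, the sodium-calcium exchanger, 0.12; and rtp, a partner of the ninaC product, 0.12. Calx lies 208 kb from Nelf-A on 3R, and its interval was -0.16 to 0.39. Of the genes in the lists used here, the nearest to Nelf-A was e, a gene of histamine handling (log2 fold change -0.56, adjusted p = 0.0739 in edgeR and 0.00110 in DESeq2), which lies 327 bases past its end on the opposite strand. The 8 members tested on 3R, the arm of the insertion, had a median log2 fold change of -0.029, and the members on other arms had a median of -0.0053.

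The 3 genes of rhabdomere structure differed by no more than 0.11 on the log2 scale. Those were chp, which encodes the adhesion protein chaoptin of the microvilli (0.015, interval -0.26 to 0.29), eys, whose secreted product opens the space between rhabdomeres (0.016, interval -0.14 to 0.18), and prom, which encodes a prominin of the microvillar membrane (-0.11, interval -0.29 to 0.066). In edgeR 0 of the 3 were called, 0 had an unadjusted p below 0.05, and DESeq2 and limma-voom called 0.

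Part of the variation among members lay between the control libraries. Control sibling replicate 1 exceeded replicate 2 by over 0.3 on the log2 scale for 5 members (Cam, rdgB, rdgA, Gprk1 and Galphaq). The reverse held for 0 members. These counts were not made over all genes tested, so they cannot be read as a trait of the members. The summed level of 9 neuron markers followed the same order, at 6208 and 7023 CPM in NelfA*/+ heads, against 7024 and 4889 CPM in control siblings. Of these, VAChT was listed at 0 in every library and elav had at most 8 counts. The gap was uneven over the 7 tested. The log2 ratio of control sibling replicate 2 over replicate 1 ran from -0.92 for para to -0.021 for ChAT. The part of the neuron markers in the values of these 5 members was not tested. Over the members tested, the median absolute gap between replicates was 0.11 in NelfA*/+ heads and 0.098 in control siblings on the log2 scale, and the median absolute fold change between genotypes was 0.083.

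Levels per length of exon spanned a wide range. Arr1 stood at a mean of 2361 CPM per kb in NelfA*/+ heads and 2256 CPM per kb in control siblings, and its libraries overlapped those of Pdh, the next in order, at 1726 CPM per kb in NelfA*/+ heads and 2213 CPM per kb in control siblings. Then came Cam (808 in NelfA*/+ heads and 841 in control siblings) and trp (782 in NelfA*/+ heads and 771 in control siblings), which also overlapped each other, and trpl (523 in NelfA*/+ heads and 554 in control siblings), which did not overlap its neighbours. In this order laza ranked 21 of 31, with 22.4 CPM per kb in NelfA*/+ heads and 45.1 CPM per kb in control siblings. Among control siblings its level lay within the range of rdgB and rdgA, and in NelfA*/+ heads it lay below both. The lowest was ninaD, at 5.36 and 0.814 CPM per kb in NelfA*/+ heads, against 1.39 and 1.34 CPM per kb in control siblings. Summed over members, the share of a library's counts was 3.27% to 3.41%.

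**Figure D3:**
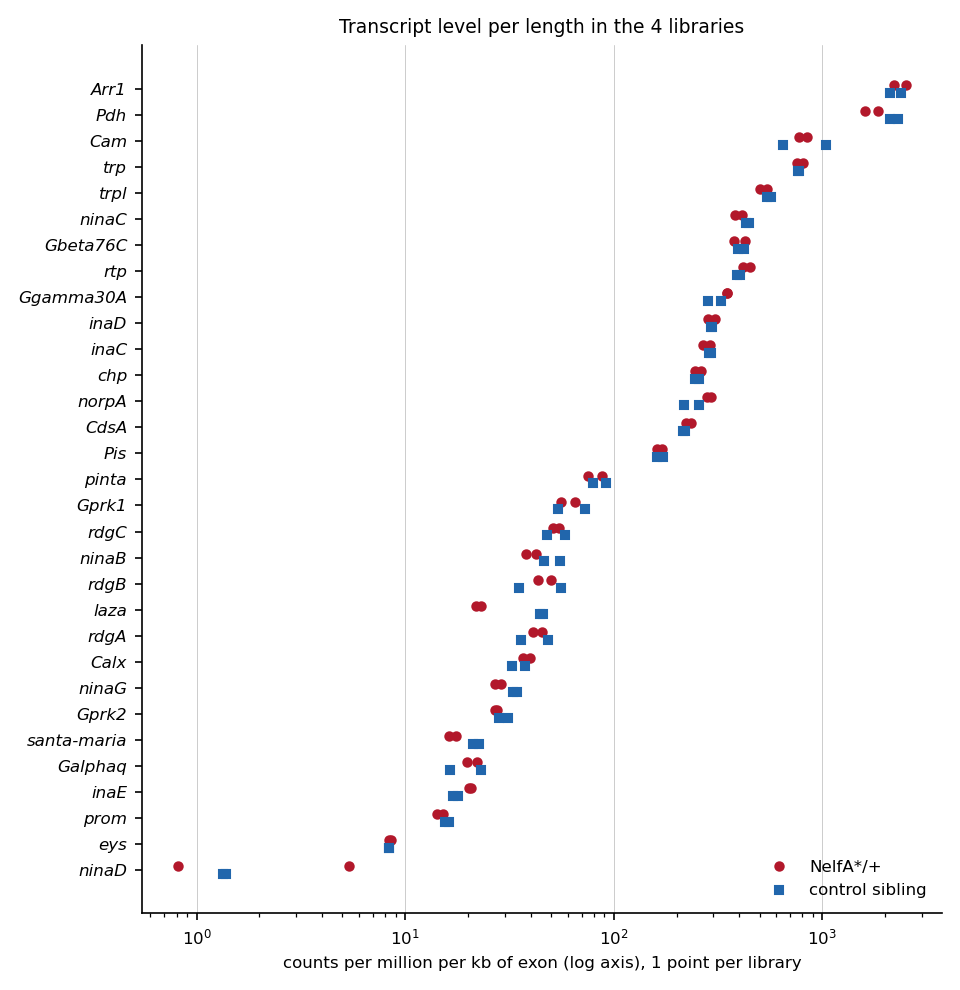
Transcript level of the 31 members in CPM per kb of exon (log axis), 1 point per library, with NelfA*/+ as circles and control sibling as squares, in order of the control mean. The points of laza split into NelfA*/+ at 23.1 and 21.8 and control sibling at 45.8 and 44.4, whereas the points of trp lie together between 760 and 804.

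The 3 members listed at 0 share a position in the genome: each lies wholly inside a longer gene on the opposite strand. Arr2, which encodes the major arrestin (3L, 8647261 to 8648936), lies in an intron of Pex7. The gene ninaA, for the cyclophilin that carries rhodopsin to the rhabdomere (2L, 877302 to 878270), lies in the exons of CG15824. The gene stops (3R, 31158156 to 31169106), needed for normal levels of the norpA phospholipase, lies in Gycbeta100B. All 1824 genes of the table that lie wholly inside another listed gene were at 0, against 626 (5.20%) of the 12048 genes with some exonic sequence outside the spans of other listed genes. A value of 0 for these 3 members can therefore not be read as absence of their RNA in either genotype. Reads that touched more than one gene, classed as ambiguous, made up 7.47% to 7.995% of all reads in the table and its summary lines.

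**Figure D4:**
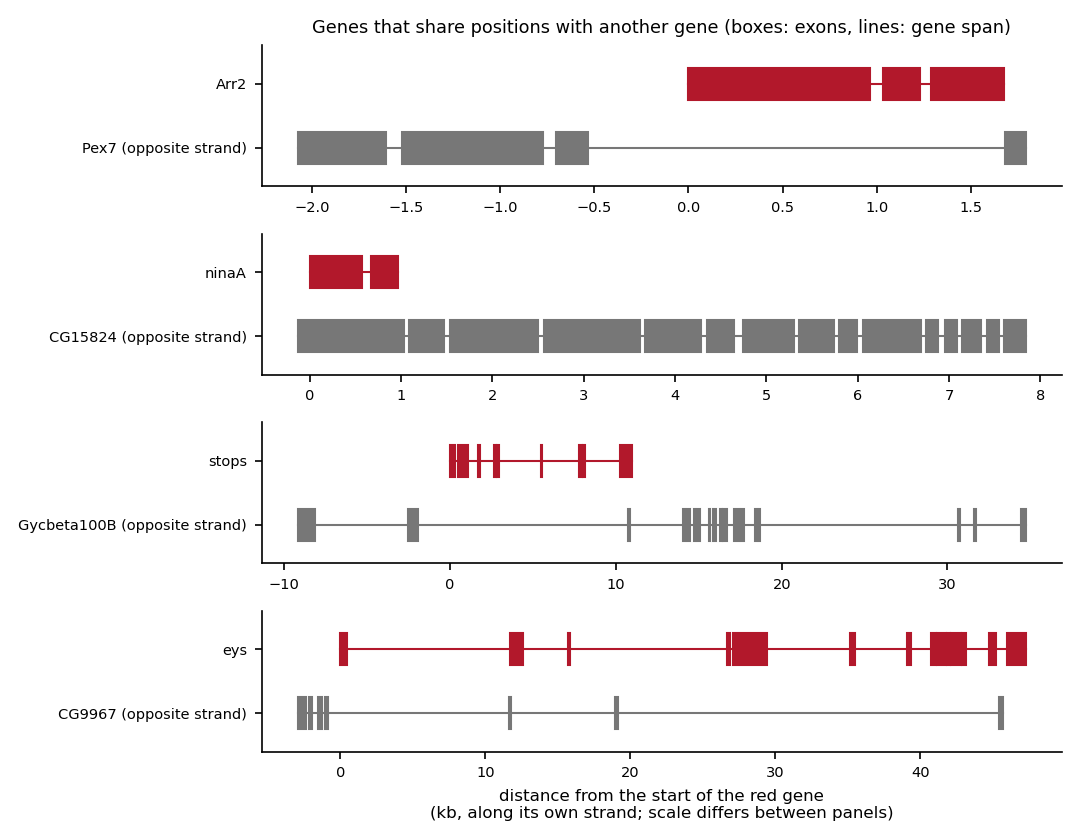
Exons (boxes) and spans (lines) of 4 members, in red, and of the gene each shares positions with, in grey, with distance in kb from the member's own start on the x axis. Arr2, ninaA and stops lie wholly within the grey gene and were listed at 0, whereas eys starts inside CG9967 and runs past its end, and kept its counts.

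Partial overlap also limited a few members that were measured. For eys, 85.2% of the exonic bases lie within the span of CG9967 on the opposite strand, so its counts (3197 normalized counts on average in NelfA*/+ heads and 3161 in control siblings) may come from a part of the transcript. For Galphaq the share was 51.1%, for rtp 20.5%, for ninaB 12.1%, for CdsA 11.7% and for santa-maria 9.50%. The other members, laza among them, had 5.7% or less of their exonic bases inside another gene of the count table.

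Other genes of the visual system were set beside the members. Of 20 further genes of the pathway, 12 were tested, 7 were at 0 and 1 (Xport-B) had too few counts. In edgeR 0 of the 12 were called, 2 had an unadjusted p below 0.05 (stmA and PIP5K59B, which act in the supply of PIP2, with log2 fold changes of 0.19 and 0.23), and DESeq2 and limma-voom called 0. Of the 8 genes of histamine handling and the photoreceptor synapse, edgeR called 0 and limma-voom 0. An unadjusted p below 0.05 was reached by 4, against 20.3% of all genes tested. DESeq2, which called 913 of the 10129 genes it tested, called 3 (e, t and ort). The enzymes of e and t join histamine to beta-alanine and split it off again (log2 fold changes -0.56 and -0.34, adjusted p = 0.00110 and 0.0182 in DESeq2). The histamine receptor gene ort gave 0.43 (adjusted p = 0.0159 in DESeq2). Of the 10 photoreceptor transcription factors, edgeR and limma-voom called 0, 1 had an unadjusted p below 0.05, and DESeq2 called that 1, eya (-0.28, adjusted p = 0.0417).

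Calls came instead from the rhodopsins, the pigment genes and the lens. Among the 7 rhodopsin genes Rh2, the opsin of the ocelli, rose, with 7998 and 7887 normalized counts in NelfA*/+ heads, against 4155 and 4137 in control siblings (log2 fold change 0.94, adjusted p = 0.00809 in edgeR). Rh3 (0.70, adjusted p = 0.0625) and Rh5 (-0.79, adjusted p = 0.0537) did not pass in edgeR but were called by DESeq2 (adjusted p = 2.92e-10 and 2.08e-06). Neither tool called ninaE (0.16), Rh4 (-0.039), Rh6 (0.078) or Rh7 (0.48). Of the 19 eye pigment genes tested, edgeR called 3, all lower (15.8%, where 1.23% of all genes tested were called lower). These were ry, for xanthine dehydrogenase (log2 fold change -1.30, adjusted p = 0.00772), Hn, for phenylalanine hydroxylase (-0.70, 0.0492), and Pu, for GTP cyclohydrolase (-0.46, 0.0427), all of which act in pteridine metabolism. DESeq2 also called bw, v and se lower. The corneal lens gene retinin had 11849 ± 181 normalized counts in NelfA*/+ heads and 22853 ± 2751 in control siblings (log2 fold change -0.95, adjusted p = 0.0361). None of these 5 calls held without control sibling replicate 1 (adjusted p between 0.0916 and 0.259) or without control sibling replicate 2 (0.0932 to 0.190), and those of Hn and Pu were also lost without NelfA*/+ replicate 1 (0.103 and 0.157) and without NelfA*/+ replicate 2 (0.0966 and 0.135). The medians of these lists were 0.16 for the rhodopsins, -0.080 for the pigment genes and -0.24 for the lens and pigment-cell genes, beside -0.0053 for the members and 0.011 for all genes tested.

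**Figure D5:**
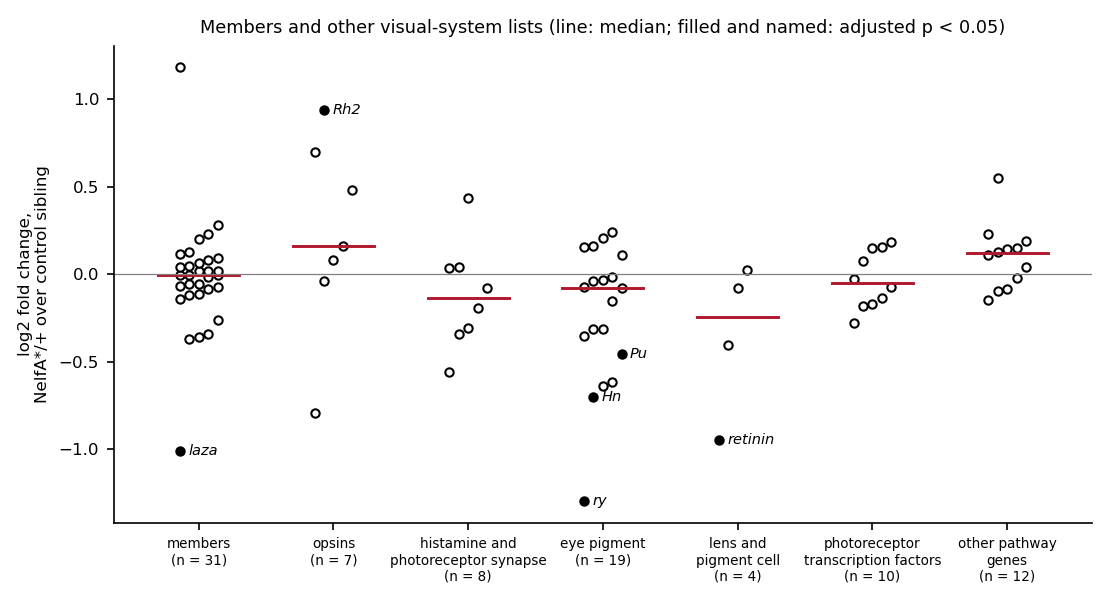
Log2 fold changes, NelfA*/+ over control sibling (y axis), of the members and of 6 other lists, 1 point per gene, with a line at each median and filled points for genes past an adjusted p of 0.05 in edgeR. The members cluster around -0.0053 with laza apart at -1.01 and ninaD at 1.18, and the named filled points of the other lists are Rh2 at 0.94 and ry, Hn, Pu and retinin between -1.30 and -0.46.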

How the data were processed

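Per the labels, adaptor trimming (Trim Galore), alignment (STAR 2.5, BDGP6), and counting per gene (HTSeq) were done by the authors, who deposited whole-number read counts without normalization. HTSeq's mode and strand setting are not given in the sources used here. The authors' own DESeq2 table (mean normalized counts, fold changes, p-values) was not used. Groups came from the labels.

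The members and lists were chosen with earlier results of these data known. Genes that passed filterByExpr (9609) were TMM-normalized and compared with edgeR 4.0.16 in R 4.3.3 (glmQLFit, glmQLFTest, Benjamini-Hochberg over all genes tested, threshold 0.05). The SE was derived from the F statistic. DESeq2 1.42.0 and limma-voom (limma 3.58.1) were alternatives, with other scalings, filters, dispersions, a replicate block, and leaving out each library. Values in every library are given for members past either tool's threshold, non-overlapping members whose log2 fold change was 0.3 or more in size, and trp, norpA, ninaC, inaD, Arr1 and Arr2, and for a few members named after their values were seen. At most 5 genes past a threshold are named per other list, except for the eye pigment genes, of which all 6 are named. Coordinates and exon lengths are from the Ensembl annotation of BDGP6, which matched 13878 of 13926 names. The scripts were tested on simulated counts. Replicates of one genotype differed beyond counting noise (chi-square per degree of freedom 50.8 in NelfA*/+ and 62.7 in control siblings), so each library counts as 1 replicate.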

Additional observations from a re-analysis of the deposited data

How the results depend on the processing

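With 2 libraries per genotype the number of calls moved widely with the settings, while the fold changes of most members moved little in the settings that kept all 4 libraries. Genes called in the whole table numbered 180, against 913 with DESeq2, 118 with limma-voom, 82 with no filter on low counts, 359 with robust dispersions and 578 at an adjusted p below 0.1. Members called numbered 1, against 3 with DESeq2 and 2 at an adjusted p below 0.1 (laza and santa-maria). Leaving out 1 library gave between 2 and 554 genes and between 0 and 2 members: 412 genes without NelfA*/+ replicate 1, 554 without NelfA*/+ replicate 2, and 2 without either control library. A genotype left with 1 library was assumed to vary like the other. The replicate numbers did not pair the libraries (correlation of the deviations of same-numbered libraries -0.12 over 8398 genes). With the replicate number as a block 297 genes and 1 member were called, Nelf-A did not pass (adjusted p = 0.0537) and Rh5 did (0.0417), and with the crossed pairing, chosen after seeing the data, 797 genes and 3 members (laza, santa-maria and ninaB).

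For the other lists, rhodopsin calls (1) were 2 with library size alone, at least 10 counts in every library or the replicate block, 3 with DESeq2, robust dispersions or an adjusted p below 0.1, 4 with the crossed block, and 0 to 2 with 1 library left out. Histamine and synapse calls (0) were 3 with DESeq2, 1 with robust dispersions, 3 with the crossed block, 2 at an adjusted p below 0.1, and 0 to 1 with 1 library left out. Eye pigment calls (3) were 6 with DESeq2, 1 with limma-voom, no filter or the replicate block, 5 with the crossed block, and 0 to 3 with 1 library left out. Calls of transcription factors (0) were 1 with DESeq2. Lens and pigment-cell calls (1) were 0 with no filter or the replicate block, and 0 to 1 with 1 library left out.

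The median log2 fold change of the members (-0.0053) was -0.0305 with library size alone, where the median of all genes was -0.014, and between -0.0458 and 0.0091 with 1 library left out. With library size alone trp (-0.0048), chp (-0.0092) and eys (-0.0087) changed sign. The sign of rdgC turned with limma-voom (0.0027) and with the replicate block or the crossed block (0.0033 each). With 1 library left out the following had values on both sides of 0: trp (-0.0201 to 0.0595), inaD (-0.0612 to 0.0485), ninaD (-0.7406 to 1.9754), Arr1 (-0.0269 to 0.1576), Galphaq (-0.1327 to 0.3537), Gbeta76C (-0.1114 to 0.0674), rdgA (-0.1524 to 0.2657), rdgB (-0.2505 to 0.4101), rdgC (-0.1356 to 0.1401), Cam (-0.3591 to 0.3196), Pis (-0.0539 to 0.0359), Gprk1 (-0.2698 to 0.1618), pinta (-0.1906 to 0.0341), chp (-0.0298 to 0.0585) and eys (-0.0029 to 0.0354). The cause of these moves was not tested. In the settings that kept all 4 libraries laza stayed past the threshold, with an adjusted p between 2.57e-23 and 0.0155.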
